A study of Vitis vinifera with 24 samples.

Results

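Berries from vines that were defoliated at veraison (V) were compared with berries from untreated control vines (C) at the end of veraison (EV). The comparison used 6 of the 24 arrays of the series, the 3 titled as veraison defoliation and the 3 titled as untreated control at that stage. Each array measured RNA from a pool of 30 Sangiovese berries, taken from 3 vines of a block and freed of seeds. All vines were clone 12T on SO4 rootstock in one vineyard row and carried 16 clusters at flowering. V vines had lost the main and lateral leaves of the 6 basal shoot nodes by hand at JD 211 (Julian day), when berries softened, and V berries were collected 16 days later. C vines kept their leaves. The series also holds C berries from the beginning of veraison (BV), C and V berries at harvest (H), and berries defoliated before bloom (PB, same nodes, JD 147) at all stages. For V there is no sample from BV, and C at BV, collected at JD 211, stood in as the starting point. A pool mixes berries that may have reached different points of veraison, and fewer cells of a type and less RNA per cell cannot be told apart in such samples.

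Veraison is the onset of ripening in the grape berry, when berries soften, take up sugar, lose acid and, in red cultivars such as Sangiovese, begin to colour. Large sets of transcripts are known to switch during this phase, with photosynthesis-related transcripts falling and transcripts of sugar transport, cell wall remodelling and anthocyanin synthesis rising. Removing basal leaves exposes the clusters to sunlight and heat and takes away a source of sugar. This comparison asks how the berry transcriptome stood shortly after such a late removal.

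The array was a NimbleGen one-colour oligonucleotide array (Cy3) with probes for predicted grapevine genes. The deposited value was a normalized fluorescence intensity per probe, and values were compared on the log2 scale, on which a difference of 1 is 2-fold. Of 139363 rows, 117999 were grapevine probes with a value and 19091 were probes of random sequence, the negative controls of the array. No table used here pairs probe identifiers with genes. For this reason values are given per probe, no gene or pathway is named, and the berry tissue could not be checked against marker genes.

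The C arrays at EV differed from the V arrays at EV in 2 ways, before any comparison of probes. Their labels describe a cluster-thinning experiment with its own control, as do those of the C arrays at H, while the other 18 arrays are labelled with the defoliation experiment. At EV the label set and the control therefore cannot be told apart. The random-probe level, the mean log2 intensity of these negative controls, was 7.15, 6.31 and 6.73 on C replicates 1, 2 and 3, and 5.95, 5.94 and 5.95 on V replicates 1, 2 and 3. Every C array lay above every V array, by a mean of 0.79 (exact permutation test, two-sided, p = 0.1, the smallest that 3 arrays against 3 allow). At H the V mean was lower than the C mean by 0.17 (exact p = 0.4), and the arrays overlapped. A high level was not confined to C at EV. PB replicates 1 and 2 at H, of the defoliation label set, had 6.38 and 6.56, above C replicate 2 at EV.

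The negative controls also set what could be called above background, taken here as each array's 95th percentile of the random-sequence probes. That limit was 1564, 369 and 786 intensity units on C replicates 1, 2 and 3 at EV, against 185, 187 and 191 on the V arrays. Above it lay 25.7%, 48.7% and 36.6% of the grapevine probes on the C arrays and 60.7%, 60.5% and 60.1% on the V arrays. The mean gap was 23.4 percentage points (exact permutation test, two-sided, p = 0.1, again the smallest possible). Fewer probes rose above background on every C array than on any V array, and C replicate 1 had the fewest. PB replicate 2 at H, with 42.6%, also had fewer than C replicate 2 at EV. The part that this background has in the differences between probes was not tested. The fits below that include the random-probe level can hardly separate it from the group, since every C array lay above every V array.

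**Figure D1:**
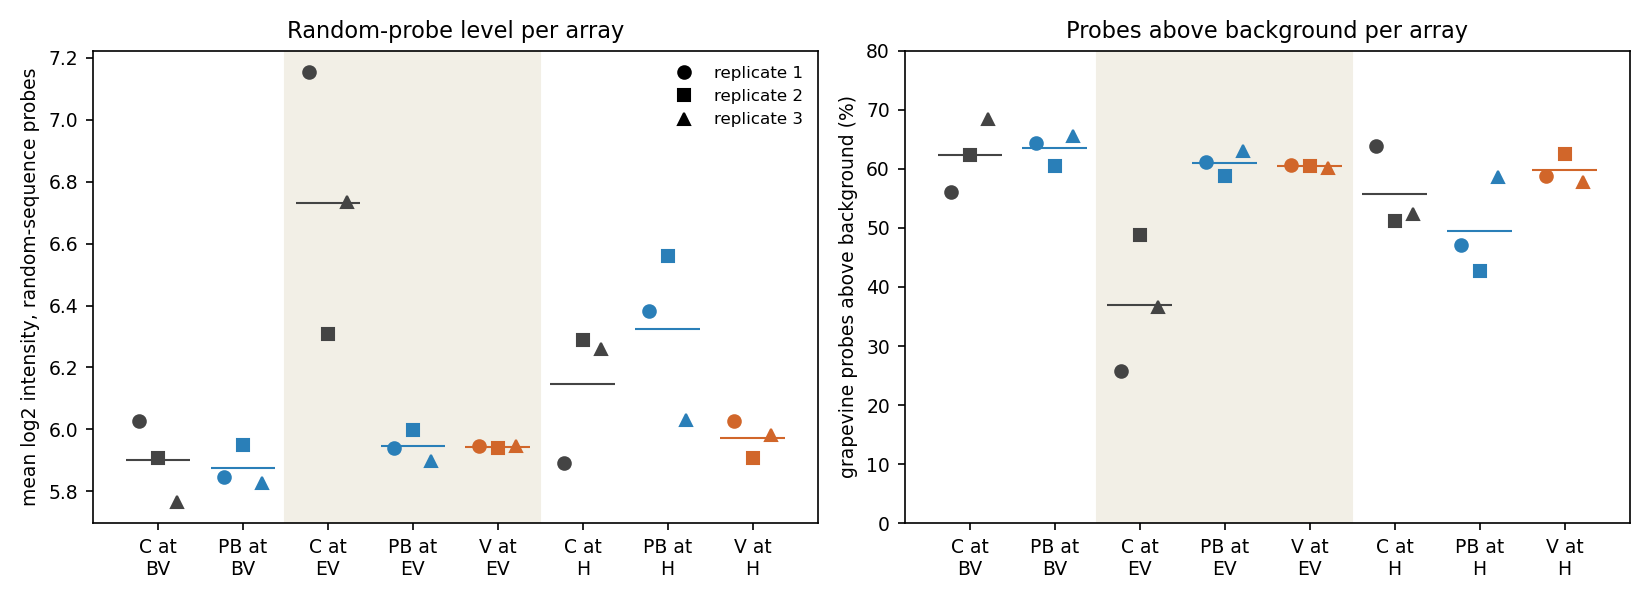
Random-probe level in log2 intensity units (left) and share of grapevine probes above background (right, percent) for each of the 24 arrays, with symbols for replicates, lines for group means and the EV stage shaded. The 3 V arrays at EV nearly coincide (5.94 to 5.95, and 60.1% to 60.7%), whereas the 3 C arrays at EV run from 6.31 to 7.15 and from 25.7% to 48.7%.

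The V arrays resembled each other far more than the C arrays did. Pearson correlations over the grapevine probes were 0.970 to 0.974 between V replicates and 0.760 to 0.912 between C replicates at EV. Correlations between a V and a C array ran from 0.663 to 0.900, and the highest were those of C replicate 2. Averaged as a root mean square, the SD of a probe over its 3 replicates was 0.42 in V and 1.01 in C (log2 scale), and it was larger in C for 79.3% of the probes. These correlations are over probes of shared arrays and serve as a description.

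The C arrays also lay at unequal distances from the V mean. The root mean square difference from it was 2.05 for C replicate 1, 1.12 for replicate 2 and 1.62 for replicate 3. At least 1 log2 unit outside the range of the 3 V arrays lay 45.6%, 18.6% and 34.4% of the probes, respectively. The order of these distances was the order of the random-probe level. Against C berries at BV, arrays that enter neither side of the comparison, V arrays correlated at 0.940 to 0.955. C replicate 1 at EV reached 0.639 to 0.663 with the same BV arrays, replicate 2 reached 0.865 to 0.903 and replicate 3 reached 0.766 to 0.792.

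In the comparison of V with C at EV, 6855 of 117999 probes were called, or 5.81%, by limma at a Benjamini-Hochberg adjusted p below 0.02 with a difference of at least 2-fold. V was higher in 4548 of them (3.85% of the probes tested) and lower in 2307 (1.96%). The median difference of the probes higher in V was 2.99 on the log2 scale, and that of the probes lower in V was -3.01. All 6855 had V and C arrays that did not overlap, as did 46362 (39.3%) of all the probes. The smallest adjusted p was 0.00233, and 38751 probes had an unadjusted p below 0.05.

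The called differences were large. The smallest was 1.54 on the log2 scale, and most fell between 4-fold and 16-fold: 1940 higher and 948 lower in V between 4-fold and 8-fold, and 1494 higher and 843 lower between 8-fold and 16-fold. Beyond 32-fold there were 163 probes higher and 32 lower in V. The largest fitted differences were 6.61 upwards and 5.72 downwards on the log2 scale. Over all grapevine probes the median difference was 0.017, with 50.7% of probes higher in V. The deposited values had already been normalized between arrays, so this balance says nothing of a general shift in transcript level. The median log2 intensity of the grapevine probes was still lower on the C arrays (8.10, 8.41 and 8.26) than on the V arrays (8.47 to 8.48).

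The number of calls changed greatly when single arrays were left out, while the sizes of the differences changed little. Without C replicate 2 the count rose to 35278, and without C replicate 1 it was 5729, of which 4971 were among the 6855. Leaving out C replicate 3 or any V array left 0 calls, although 25307 to 29075 probes then had an unadjusted p below 0.05. The 6855 probes kept their direction in each of these 6 fits, with a median size of 2.85 to 3.15 on the log2 scale. Without V replicate 3, 2205 of them had an adjusted p below 0.05, and without C replicate 3, 4691 did. SAM, a permutation-based test, called 28135 probes at a false discovery rate of 2% and 2-fold. With the same settings it called 5450 of the 19091 random-sequence probes, so a SAM call does not by itself mark a transcript difference. A limma fit that included the random-probe level as a covariate called 0, with a smallest adjusted p of 0.0268. That level hardly varied among the V arrays (5.94 to 5.95) and was higher on every C array (6.31 to 7.15). Its slope thus rests on the C arrays, and the group difference in this fit is an extrapolation. Nothing is read from its 0 calls.

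**Figure D2:**
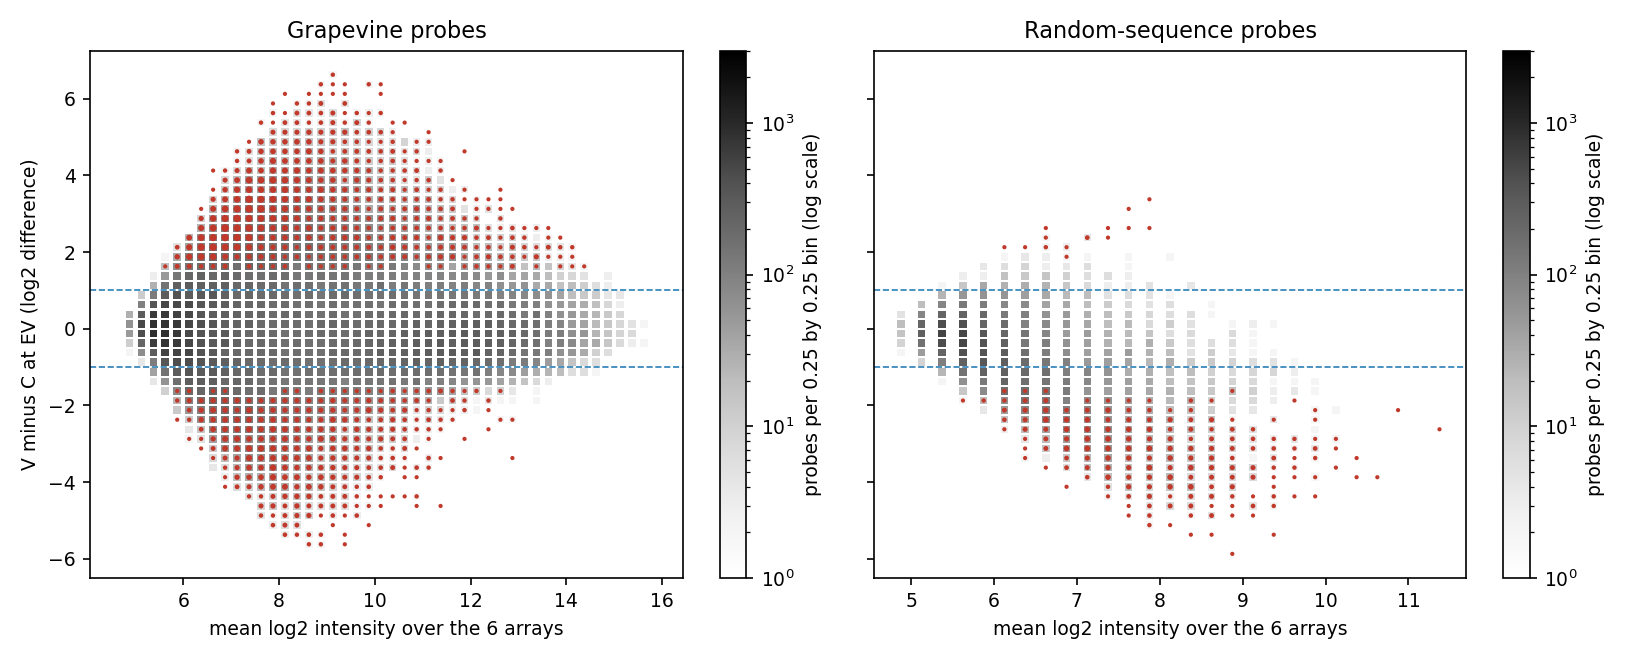
Difference between V and C at EV (log2, vertical axis) against the mean log2 intensity over the 6 arrays, for grapevine probes (left) and random-sequence probes (right). Grey squares show the number of probes per bin on a log scale, red points mark bins that hold called probes, and dashed lines mark 2-fold; called grapevine probes lie on both sides, while called random-sequence probes lie mostly below 0.

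Pooled over both directions, the same test on the random-sequence probes gave a similar share of calls. It called 980 of 19091, or 5.13%, and V was lower in 962 of them and higher in 18. Over all random-sequence probes 77.3% were lower in V, and 5519 had an unadjusted p below 0.05. These probes match no grapevine transcript by design, so 5.13% is the rate at which negative controls passed the thresholds in this comparison. The shares were not alike within a direction. Of the grapevine probes, 3.85% were called higher in V and 1.96% lower. Calls lower in V made up nearly all of the 5.13%, so random-sequence probes were called lower more often than grapevine probes. They were called higher far less often, 18 of 19091. A call lower in V thus does not by itself mark a transcript difference.

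The direction of the calls followed the level of the probe in V. Among the 25% of probes that were dimmest in V, 1044 were called lower and 0 higher. Among the next 25%, 1134 were called higher and 999 lower, and among the 25% after those 2366 higher and 246 lower. Among the brightest 25%, 1048 were called higher and 18 lower. Called probes that were dim in V were thus brighter in C, and most called probes that were bright in V were dimmer in C. Since these classes were set by V values, which also enter the difference, this pattern is a description and carries no test.

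Many called probes were above background in one group only, 4824 of the 6855 at the limit used here and 2307 with the random-probe mean of each array as the limit. Of the 6855, 3782 (55.2%) were above background on at least 1 V array and on no C array, and all of these were called higher in V. On at least 1 C array and no V array were 1042 (15.2%), all called lower in V. On all 3 arrays of the one group and none of the other, the numbers were 3389 and 397. In such probes the dimmer group gives only a bound, set at the higher of the probe's own value and the background limit of each array. Against that bound 1438 of the 3782 were above 1-fold, so for most of this class the values set no limit on the size of the increase, and 532 were at least 2-fold higher in V, the most extreme at least 10.1-fold. Of the 1042, 1013 were at least 2-fold lower in V, with a median of at least 4.67-fold and a most extreme value of at least 24.9-fold. These bounds hold for intensities and take the C value as signal of the probe's transcript. Called random-sequence probes, which match no transcript by design, reached -5.84 on the log2 scale, while grapevine probes reached 5.72 downwards.

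A further 619 called probes (9.03%) were above background on no array, of which 499 were lower and 120 higher in V. Another 890 were above it on some arrays of both groups, with 523 higher and 367 lower in V.

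**Figure D3:**
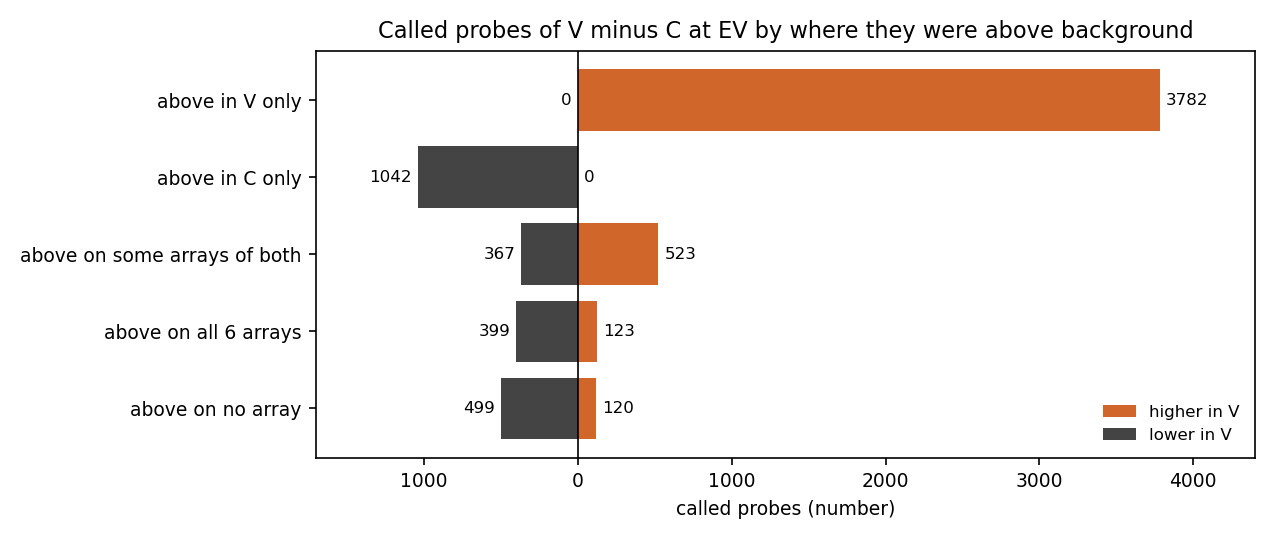
Number of called probes that were higher in V (orange, right) and lower in V (dark, left) at EV, by the group in which they were above background. The largest class holds 3782 probes above background in V only, while 522 probes were above background on all 6 arrays, 123 higher and 399 lower in V.

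The probes above background on all 6 arrays are those that passed the limit on both sides, though a probe can pass it narrowly. There were 27177, of which 522, or 1.92%, were called in the fit over all probes. V was higher in 123 and lower in 399 of them. The limit was higher on the C arrays than on the V arrays, so passing it on all 6 favours probes that were high in C, and nothing is read from the balance of directions in this set. The 123 had a median difference of 2.07 on the log2 scale and the 399 a median of -2.50. None of the 123 reached 16-fold, and 9 of the 399 did. Of all 27177, 32.2% were higher in V and the median difference was -0.37. The probes higher in V were bright ones, with a median log2 level of 13.72 in V and 11.57 in C. Those lower in V had a median level of 8.69 in V and 11.39 in C.

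Of these 522, the 2 probes that increased most and the 2 that decreased most are given by identifier. VitusP00212013 had intensities of 16420, 15228 and 16831 on V replicates 1, 2 and 3 and of 1596, 1123 and 2084 on the C replicates. All V arrays were far above all C arrays, a difference of 3.38 on the log2 scale (SE 0.35, limma adjusted p = 0.00395), or 10.4-fold. C replicate 1 lay just above its background limit of 1564, so the C side was near background on that array. The C arrays at BV read 18880, 14932 and 17238, close to V at EV. Of 7 other probes within 9 numbers, which ran from -3.50 to 1.05, 3 were also higher in V and 0 were called so. At H VitusP00212013 read 10588, 16389 and 15561 in V and 9948, 5582 and 3357 in C. The groups at H did not overlap, but the difference of 1.29 did not pass the test (limma adjusted p = 0.385).

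VitusP00130791 read 14625, 12131 and 13820 on the V arrays and 1723, 857 and 1835 on the C arrays at EV. The difference was 3.27 on the log2 scale (SE 0.39, limma adjusted p = 0.0054), or 9.67-fold, and the groups were well apart. C replicate 1 again lay near its background limit of 1564. The C arrays at BV read 17588, 12009 and 15859. VitusP00130791 had 6 others within 9 probe numbers, all of which were higher in V, by 1.93 to 4.99 on the log2 scale, and 2 of them were called. The identifiers do not say whether such neighbours belong to one gene.

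VitusP00009429 showed the largest decrease among the 522. It read 386, 285 and 468 on the V arrays and 14829, 4159 and 12873 on the C arrays at EV. V was lower by a wide margin, with a difference of -4.64 on the log2 scale (SE 0.54, limma adjusted p = 0.00513), or 24.9-fold. At BV the C arrays read 787, 387 and 394, and at H they read 384, 1096 and 340, so that the high values were found in C at EV alone among the C arrays. V at H read 784, 1021 and 1929. The V difference at EV less that at H was -5.78 (limma adjusted p = 0.027), which missed the threshold of 0.02. Of 8 other probes within 9 numbers, 6 were also lower in V and 2 were called, but they ran from -5.23 to 5.21.

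VitusP00023405 read 310, 226 and 194 on the V arrays and 12284, 1981 and 7897 on the C arrays at EV. The lowest C array was still far above the highest V array, and the difference was -4.60 (SE 0.68, limma adjusted p = 0.00918), or 24.2-fold. V replicate 3 lay just above its background limit of 191 and V replicate 2 near its limit of 187, so the V side was near background. C replicate 2 lay nearest V in both of the decreased probes, as it did in 61.6% of the 6855 called probes and in 53.1% of all probes. At BV this probe read 337, 264 and 526 in C. None of the 7 others within 9 numbers was called in the same direction.

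The differences of all 4 probes changed when the random-probe level was in the fit. The group difference in that fit is an extrapolation, as stated above, so nothing is read from the change. With that level as a covariate, the difference was -2.92 for VitusP00009429 (limma adjusted p = 0.0612) and -2.14 for VitusP00023405 (limma adjusted p = 0.101), and the increases were 3.85 for VitusP00212013 (limma adjusted p = 0.0314) and 4.22 for VitusP00130791 (limma adjusted p = 0.0289). Each of the 4 probes kept its direction in the 15 alternatives run and lost its call in 7 of them.

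**Figure D4:**
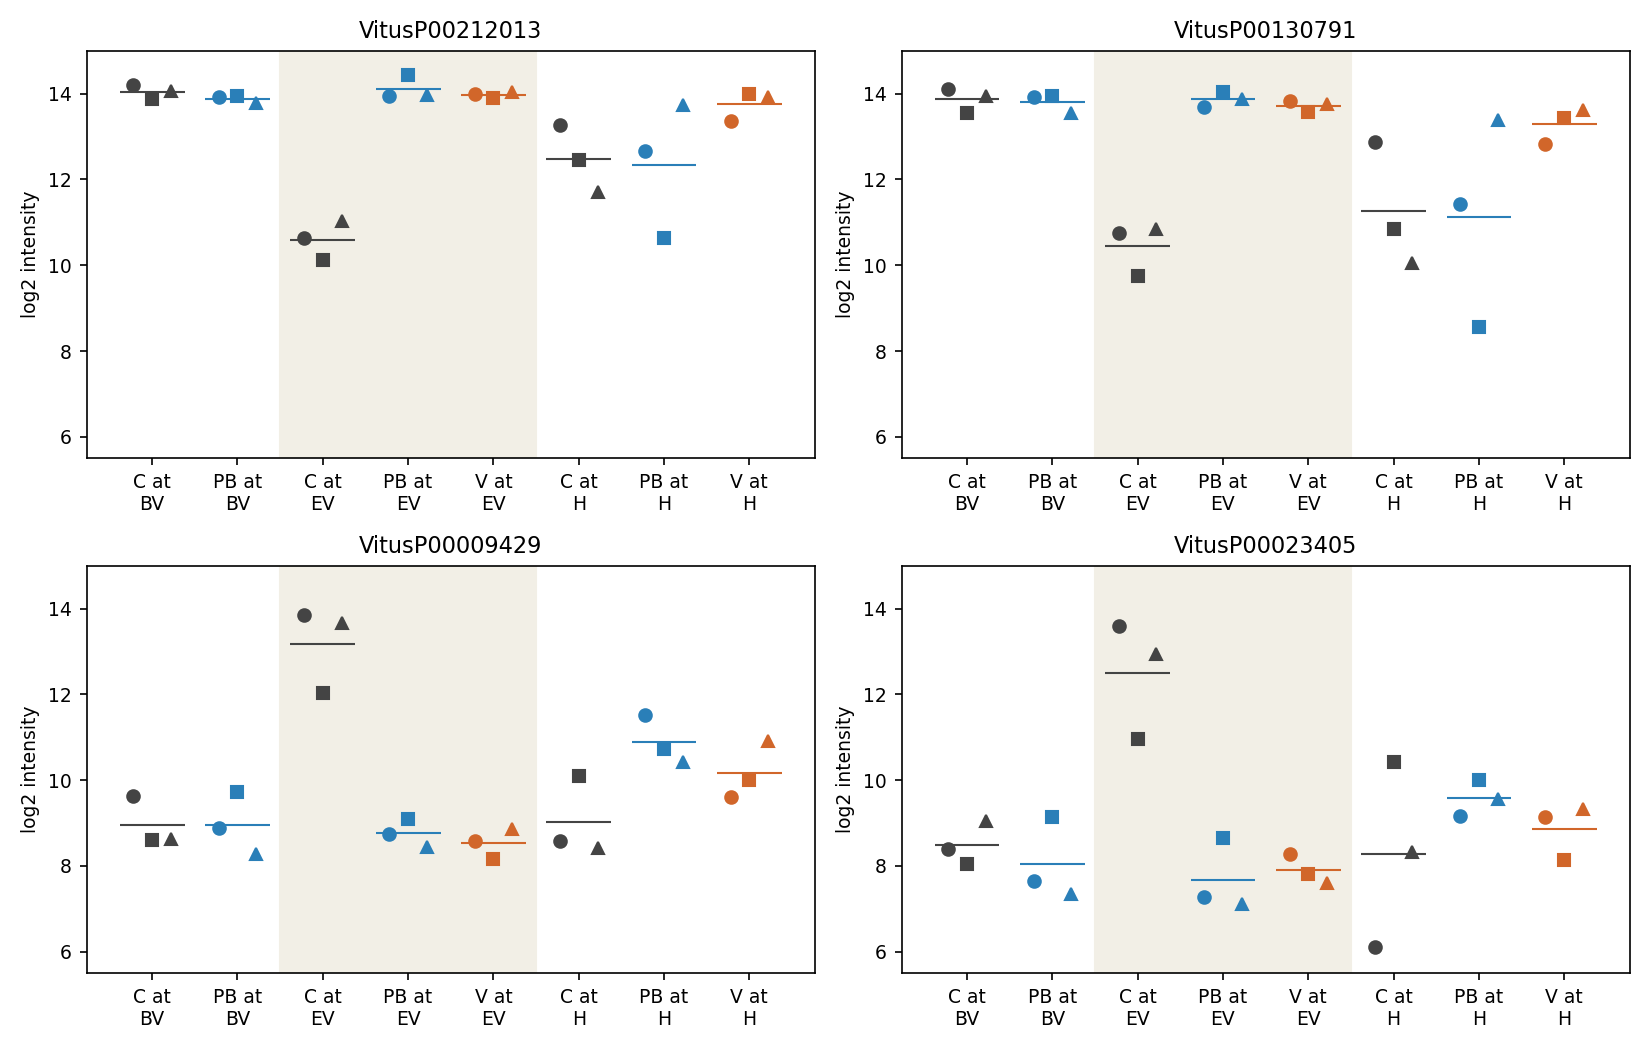
Log2 intensity of the 4 probes on each of the 24 arrays by treatment and stage, with symbols for replicates as circles (1), squares (2) and triangles (3), lines for group means and EV shaded. In all 4 panels the C arrays at EV lie apart from V at EV, PB at EV and C at BV. The arrays of those groups lie close to each other for the increased probes. They spread wider for the decreased ones, from 7.12 to 9.04 for VitusP00023405.

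The called probes were then followed across all groups. Over the 4548 probes called higher in V, the median log2 intensity of an array was 9.31 to 9.56 in V at EV and 5.87 to 6.41 in C at EV. On the same probes it was 8.95 to 9.62 in C at BV, 9.05 to 9.29 in PB at BV and 9.33 to 9.63 in PB at EV. V at EV was thus at the level of the BV arrays and of PB at EV, and C at EV was the group that differed among these. At H the medians were 8.64 to 9.79 in V, 6.71 to 9.08 in C and 6.19 to 8.90 in PB, so that single C and PB arrays reached the range of V. PB replicate 2 at H, the lowest of them, lay within the range of C at EV.

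Over the 2307 probes called lower in V, the medians were 6.54 to 6.62 in V at EV and 9.22 to 10.56 in C at EV. C at BV had 6.83 to 7.20 and PB at EV had 6.69 to 6.96. At H the medians were 7.29 to 7.60 in V, 7.25 to 7.94 in C and 7.51 to 8.73 in PB. On this list every array of the other groups lay below the C arrays at EV. The lists were chosen on the EV values of V and C, so only the levels in the other groups are independent of the choice.

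**Figure D5:**
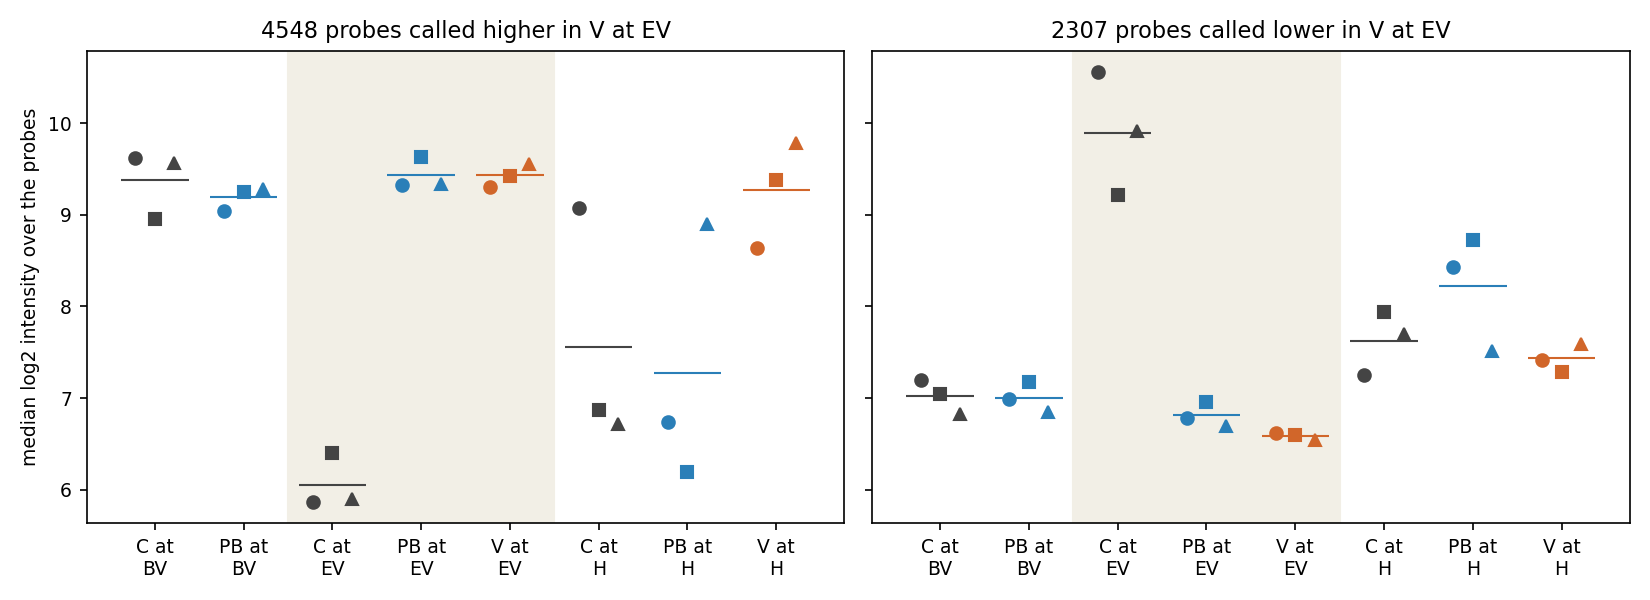
Median log2 intensity over the probes called higher (left) and lower (right) in V at EV, for each of the 24 arrays, with symbols for replicates as circles (1), squares (2) and triangles (3), lines for group means and EV shaded. C at EV is low on the left (5.87 to 6.41) and high on the right (9.22 to 10.56), while V at EV lies with C at BV and PB at EV on the left.

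Whether V berries had moved from the state of C berries at the time of leaf removal was tested without the C arrays at EV. Between V at EV and C at BV, limma called 44 probes (0.0373%), 9 higher and 35 lower in V, and 21313 probes had an unadjusted p below 0.05. SAM called 2090. Leaving out any of these 6 arrays left 0 calls. The median differences of the called probes were 2.95 upwards and -3.10 downwards. Of the 44, 16 were above background on all arrays of both groups, as were 60353 of the 117999 probes. Over the probes called higher in V than in C at EV the median of this difference was 0.12, and over those called lower it was -0.35, beside 0.0073 over all probes.

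C at EV, by the same test, differed from C at BV in 5533 probes (4.69%), 1705 higher and 3828 lower at EV. The arrays of these groups carry different label sets, and their mean random-probe level was 6.73 at EV and 5.90 at BV. Stage, label set and background cannot be told apart here. This comparison uses the same C arrays at EV as the comparison with V, so its calls are not independent of the 6855. The medians of the difference over the probes called higher and lower in V were -2.92 and 2.65.

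V and PB berries at EV, defoliated at different times, were compared directly. The test called 0 probes (0% of 117999), with a smallest adjusted p of 0.777 and 7542 probes at an unadjusted p below 0.05, and SAM called 2. The root mean square difference between the means of V and PB was 0.36, against 1.42 between V and C. Over the probes called higher and lower in V than in C, the median differences of V from PB were 0.04 and -0.20. PB less C at EV gave 6915 calls (5.86%), beside 5.81% for V less C, with the C arrays shared by both comparisons.

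At harvest, on other arrays, the test of V less C called 0 probes (0%), with 15278 at an unadjusted p below 0.05 and a smallest adjusted p of 0.385, and SAM called 3. Over the 4548 probes called higher in V at EV, the median difference at H was 1.44 on the log2 scale, and 93.1% of them were higher in V, beside a median of -0.04 and 47.4% over all probes. Over the 2307 called lower, the median at H was -0.12 and 57.9% were lower in V. C replicate 1 at H carried a median of 9.08 over the 4548 probes and replicates 2 and 3 carried 6.88 and 6.71. Replicates 2 and 3 were also the C arrays of higher random-probe level at H, with 6.29 and 6.26 against 5.89 for replicate 1. The part of that level in the difference at H was not tested.

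The change of the V difference between EV and H, tested as an interaction over 12 arrays, gave 0 calls (0%). Its smallest adjusted p was 0.0206, just above the threshold, and 18362 probes had an unadjusted p below 0.05. Without C replicate 2 at EV it gave 9768 calls. Over the probes called higher at EV the median of the interaction was 1.63, and over those called lower it was -2.93. Since both lists were chosen on the EV values, these medians are a description.

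Probes with close numbers tended to differ alike. Among 64782 pairs of probes within 2 numbers of each other, the correlation of the difference between V and C at EV was 0.28. It was 0.26 for the difference between V and PB at EV, 0.51 for that between V at EV and C at BV, and 0.53 for that between V at H and V at EV. Restricted to pairs above background on all the arrays concerned, the values were 0.46 (7253 pairs), 0.50 (27035 pairs), 0.69 (25295 pairs) and 0.72 (23838 pairs), in the same order. The level itself correlated at 0.65 between neighbours in V at EV and at 0.51 in C at EV. These correlations are over probes, which are not independent replicates, and the pairs share their arrays.

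Of 5817 called probes with a neighbour within 2 numbers, 1029 (17.7%) had one that was called in the same direction. There were 610 pairs of neighbours that were both called, and in 57 of them (9.34%) the directions were opposite. Runs of 3 or more neighbours called the same way numbered 65 and held 207 probes, and the longest had 5 probes. Over all probes, 3.85% were called higher and 1.96% lower. A probe can have more than 1 neighbour, so these shares and the 17.7% are unlike measures. Most called probes with a neighbour had none that was called in the same direction.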

How the data were processed

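The authors deposited normalized fluorescence intensities per probe for 24 arrays. Scanning, background correction and normalization software is not given in the sources used here. Of 139363 rows, 2273 held no value. Intensities were put on the log2 scale without further normalization or filter. V and C at EV (6 arrays) were fitted with limma 3.58.1 (R 4.3.3, lmFit and eBayes), with Benjamini-Hochberg adjustment over 117999 grapevine probes. A probe was called at an adjusted p below 0.02 and at least 2-fold. Random-sequence probes and the other comparisons were fitted in the same way on the groups concerned. The scripts were tested on simulated data. P-values measure the spread between 3 pools per group, and the precision is limited by that number of arrays. The named probes were the 2 largest increases and 2 largest decreases among called probes with separated groups and values above background on all 6 arrays. The planned gene lists and tissue markers could not be applied, because no table used here pairs probes with genes. Members, rule and tests were chosen with earlier results of these data known. The alternatives were scaling, quantile normalization, filters, a floor, a fit of all 24 arrays, the replicate block, array weights, covariates, SAM, other thresholds and leaving out each array.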

Additional observations from a re-analysis of the deposited data

How the results depend on the processing

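The 4 named probes kept their direction under all alternatives run. Their adjusted p ranged from 3e-05 to 0.101, and each lost its call in 7 of 15 alternatives: the block, both random-probe covariates, and without C replicate 3 or any V array. The count of 6855 calls stayed within 1.5 times under MAD scaling (6366), quantile normalization over grapevine probes (6856), the filter of the study (6916), the lowest 25% left out (6308), eBayes with trend and robust estimation (7094), and a minimum of 1.5-fold or none (6855 each). The share of calls higher in V was 66.3%, 60.1% with MAD scaling and 59.0% with quantile normalization. The count was 23091 with all 24 arrays in the fit, 28135 by SAM, 44696 with array weights and 15029 at an adjusted p below 0.05. With a floor at the background limit of each array it was 58470, of which 55956 were lower in V. The floor itself was lower on every V array than on any C array. A probe at the floor on all 6 arrays was therefore lower in V by construction. With the random-probe mean as a covariate it was 0, and likewise 0 with their median, an alternative added after seeing the data. Restricting the adjustment to the 27177 probes above background on all 6 arrays, also added later, gave 2164 calls, 525 higher and 1639 lower in V. Leaving out 1 array gave 0 to 35278 calls.

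With the replicate number as a block, 0 of the 117999 probes were called for V less C (smallest adjusted p 0.0203) and 0 for V at EV less C at BV. The deviations of same-numbered V and C arrays correlated at 0.086, 0.160 and -0.009, and the labels, which place the vines of each treatment in 3 blocks, do not tie a replicate number to a block, so the numbers were not taken as pairs. The random-sequence calls were 3001 with all arrays, 5450 by SAM, 4228 with weights, 2094 at an adjusted p below 0.05, 761 with the block, and 0 to 5014 without 1 array. V at EV less C at BV gave 141 calls with all arrays, 2090 by SAM, and 0 without any 1 array. SAM called 2 for V less PB and 3 for V less C at H. The interaction gave 28 calls without the lowest 25%, 1269 with all arrays, and 0 to 9768 without 1 array. Called probes above background in 1 group only numbered 4824, or 2307 with the random-probe mean as the limit. The random-probe level difference ran from -1.0 to -0.58 without 1 array. The gene lists were not run. The cause of these changes was not tested. Array weights used the gene-by-gene method.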
